A study of Homo sapiens with 8 samples.

Results

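H522 is an established human line that the labels assign to non-small cell lung cancer, the broad class of lung tumours that excludes small cell carcinoma. It was 1 of 8 cancer cell lines whose RNA was sequenced in a study of ibrutinib, a drug made against Bruton's tyrosine kinase that also binds some ERBB receptors. The other 7 lines were H661 (lung, large cell cancer), H146 (lung, small cell cancer), KLE and HEC59 (both endometrial), H716 (cecum), 1321N1 (glial) and COV318 (ovarian). Every line was kept in plates for 48 hours before extraction, no drug is named for any sample, and the passages given were 4 to 7 for H522. The study's contrast of responding with non-responding lines was not analysed here, since the labels do not place a line in either group.

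The transcriptome of H522 was set against the other 7 lines by its margin, a difference on the log2(FPKM + 1) scale. FPKM is the number of sequenced fragments scaled by transcript length and by library size. The margin above is H522 minus the highest of the other 7 lines, and the margin below is the lowest of the other 7 minus H522. A gene was kept where any line reached an FPKM of 1, which left 19209 genes, 13954 of them protein-coding. Each line had 1 library, so no difference has a replicate check, no p-value is given, and values describe these libraries. In a bulk library a gene expressed in fewer cells cannot be told apart from one expressed at a lower level per cell.

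Background on the pathways is needed to place the genes. ERBB receptors are tyrosine kinases of the cell surface that are switched on by small secreted ligands of the epidermal growth factor family and that signal through the MAP kinase cascade. Epiregulin, the product of EREG, binds EGFR and ERBB4, whereas neuregulins bind ERBB3 and ERBB4. Lung tumours are usually told apart by lineage genes, such as NKX2-1 and the surfactants for the distal airway, TP63 and basal keratins for squamous cells, and INSM1 or CHGA for neuroendocrine cells.

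Of the 5 genes given as markers of H522, EREG, SCEL and S1PR1 had the widest margins and are shown by their promoters, since each stayed under an FPKM of 2 in all other 7 lines. The sequences are those of RefSeq on GRCh38.p14, 300 bases each from 250 before to 50 after the annotated start. Capitals mark a TATA box (TATAAA) or an AP-1 site (TGANTCA), each searched on both strands. These windows lie at chr4:74364895-74365194, chr13:77535456-77535755 and chr1:101236769-101237068, all on the plus strand.
EREG: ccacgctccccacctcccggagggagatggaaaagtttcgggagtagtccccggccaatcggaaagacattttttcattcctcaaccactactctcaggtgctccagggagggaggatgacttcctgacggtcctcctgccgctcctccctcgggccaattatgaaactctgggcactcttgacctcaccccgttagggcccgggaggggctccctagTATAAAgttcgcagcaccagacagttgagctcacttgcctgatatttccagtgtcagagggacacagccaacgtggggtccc
SCEL: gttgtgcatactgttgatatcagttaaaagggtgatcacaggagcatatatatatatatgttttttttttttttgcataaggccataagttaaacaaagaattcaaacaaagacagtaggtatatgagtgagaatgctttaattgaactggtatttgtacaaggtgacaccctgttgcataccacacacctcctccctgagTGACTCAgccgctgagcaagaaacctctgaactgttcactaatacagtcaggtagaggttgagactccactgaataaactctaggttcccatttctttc
S1PR1: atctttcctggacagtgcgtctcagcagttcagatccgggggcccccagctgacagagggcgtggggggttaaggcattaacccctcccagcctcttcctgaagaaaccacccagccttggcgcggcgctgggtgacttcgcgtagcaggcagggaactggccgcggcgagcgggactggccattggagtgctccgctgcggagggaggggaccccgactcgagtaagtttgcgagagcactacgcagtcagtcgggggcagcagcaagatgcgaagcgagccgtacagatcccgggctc
The EREG window held TATAAA 32 bases before the start and 12 CpG dinucleotides. In the SCEL window there was 1 AP-1 site, 49 bases before the start, and 1 CpG. The S1PR1 window held neither motif and had 23 CpG. Among 35116 promoters of this length, 11.5% held TATAAA, 7.71% held TGANTCA and the median was 14 CpG. The 3 promoters thus share neither motif, and the windows of ALDH1A1 and ERBB4, the other two markers, held neither. A match in a window is a description of its letters and no evidence of binding.

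Lineage markers of the lung were mixed in H522. Of 17 lung lineage genes, 8 reached an FPKM of 1 in any line, and 8 were listed at 0 in H522. The latter included SFTPB, SFTPC, NAPSA, SCGB1A1 and KRT7. Of all 58202 identifiers, 23046 were listed at 0 in every line. The share of all genes listed at 0 in H522 was not counted. Counts of list members at 0, here and below, are therefore not read as traits of H522. NKX2-1 stood at an FPKM of 0.0204, against 11.2 in H661 and at most 0.285 in the remaining lines. SOX2, a transcription factor of airway and squamous progenitors, was at 72.0, the highest of the 8 lines with H146 next at 55.7, although quantile normalization turned the margin of 0.36 into -0.05. FOXA1, a pioneer factor of endoderm, was at 8.71. TP63, KRT5 and KRT14 were listed at 0 and DSG3 was at 0.0363, so these squamous markers were at or near 0. Of the neuroendocrine markers, NEUROD1 and INSM1 were listed at 0, CHGA was at 0.371 and SYP at 2.37. UCHL1, also of the neuroendocrine list, was higher at 656, inside the range of the other lines. BEX1 at 12.4 and DLL3 at 2.17 were both under the median of the other lines. The surfactant genes and NKX2-1, which define distal lung epithelium, were thus at or near 0. For the surfactants this was shared with the other lines, where SFTPB and SFTPC were at most 0.0698 and 0.345. SFTPA1, SFTPA2 and SCGB1A1 were at 0 in all 8 lines.

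Epithelial genes were low as a group. The list of 14 epithelial genes past the filter had a median difference of -1.001 from the median of the other 7 lines, where the same quantity over all protein-coding genes was 0.067, and 12 of the 14 were under that median. Of all protein-coding genes past the filter, 54.1% were above and 43.4% under the median of the other lines, which is the background for every list. EPCAM, an adhesion molecule of epithelia, was at 20.6. Keratins KRT8 and KRT18, the filaments of simple epithelia, were at 1.36 and 7.48 against 486 and 1331 in KLE. H522 was not the lowest line for either, with KRT8 at 0.165 in H661 and KRT18 at 7.01 in 1321N1. E-cadherin (CDH1) was at 0.178, and was also under 1 in H661, H716, 1321N1 and COV318. It was at 26.1 to 102 in H146, HEC59 and KLE. Several mesenchymal genes were low as well. N-cadherin (CDH2) was at 0.446, caveolin (CAV1) at 0.227 and SNAI2 at 0. None of these was lowest in H522 alone, with CDH2 at 0.0487 in H716, CAV1 at 0.0148 in H146 and SNAI2 at 0 in HEC59. Vimentin (VIM), at 193, was also under the median of the other lines, 402. ZEB1, a repressor of epithelial genes, was at 22.1, above a median of 14.0. SNAI1 was highest in H522 at 4.30, by a margin of 0.58. AXL (8.94, median 0.685) and TWIST1 (3.06, median 1.77) were also above the median of the other lines. The mesenchymal list of 15 genes had a median difference of -0.53, with 4 above and 11 under the median of the other lines. Among 17 cadherins past the filter, 14 were under that median, and CDH7, a type II cadherin, was the exception in size at 42.0, a level it shared with H661 (45.6) and H146 (37.6).

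The libraries were alike enough for this comparison, with limits. H522 had 12445 genes at an FPKM of 1 or more, the other lines 12205 to 13300. For protein-coding genes H522 had the fewest, 10294 against 10379 to 11039. Mitochondrial genes took 6.11% of its summed FPKM against 4.37% to 16.1%. Absolute depth is unknown. From steps in the lowest values, the relative depth of the other lines was 0.5 to 1.34 times that of H522. Those steps matched those of H522 better in H661, KLE and H716 (15.4% to 17.2% of genes at the commonest ratio) than in the other 4 lines (6.55% to 10.6%). No housekeeping gene of the list of 10 was at 0 in H522, and its YWHAZ (116) and SDHA (16.1) were the lowest of the 8 lines. Of 12 immune markers 7 were listed at 0, and CD68 (5.75) was the highest. Of 11 endothelial markers 4 were listed at 0, PECAM1 and CDH5 among them, and TEK alone was above 1. Fibroblast markers summed to 36.0, most of it COL3A1 (25.5), against 4.09 to 1117 elsewhere. Across protein-coding genes H522 ranked most like H661 (Spearman correlation 0.864) and least like H146 (0.720), with the other lines from 0.761 to 0.807. These are correlations across genes, which are not replicates.

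H522 stood above every other line by a margin of 1 or more in 236 protein-coding genes, 1.69% of those tested, and by 3 or more in 9, 0.0645%. It stood below every other line by 1 or more in 94 genes, 0.674%, and by 3 or more in 8, 0.0573%. For the other 7 lines the median was 341 genes above by 1 or more, with COV318 the fewest at 197, and 15 to 88 genes were above by 3 or more. Their counts below were 29 to 383 and 2 to 36. H522 thus had the fewest genes above by 3 or more of the 8 lines, while its 236 lay inside the range of the others. It was the highest line in 2317 genes (16.6%) and the lowest in 1176 (8.43%). Of all genes above or below by 1 or more, 71.5% were above. With values scaled to the same upper quartile, 187 were above and 123 below, so that 60.3% were above.

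**Figure D1:**
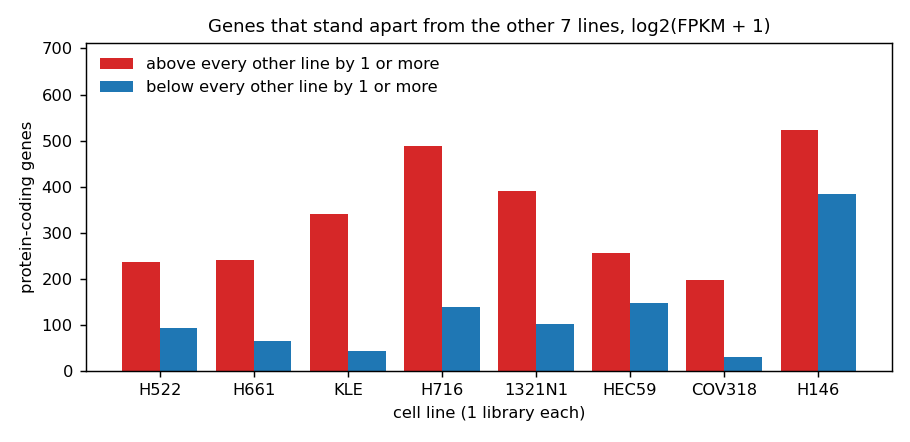
Number of protein-coding genes (vertical axis) that stood above (red) or below (blue) all other 7 lines by a log2(FPKM + 1) margin of 1 or more, for each cell line with 1 library. H522 had 236 above and 94 below, and H146 had the most of both, with 383 below.

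The next line after H522 was most often H661, also a lung line. Among the 236 genes above, H661 was second in 83, 1321N1 in 46, KLE in 35, H716 in 22, COV318 in 19, H146 in 16 and HEC59 in 15. Without H661 the count above by 1 or more became 361 and that above by 3 or more 22. Most of the 236 were well expressed, with 192 at an FPKM of 10 or more in H522 and 51 at 100 or more, and in 22 every other line was under 1. Of the 94 genes below, 48 were under 1 in H522, 5 were listed at 0, and in 33 every other line reached 10 or more. At the edge of the threshold, MED17 (68.2 against at most 33.5) was just inside at a margin of 1.002 and CROCC (2.99 against at most 0.997) just outside at 0.998. For the genes below, TRAPPC1 was just inside at 1.006 and PCGF5 just outside at 0.996. These genes were picked for their place at the edge.

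Some of the widest margins above belonged to ligands and surface receptors. EREG, the ERBB ligand epiregulin, was at 28.7 in H522, while the other 7 lines ran from 0 to 0.0547 with a median of 0.0161, a margin of 4.82. S1PR1, the first receptor for the lipid sphingosine 1-phosphate, was at 47.0 against 0 to 1.83 (median 0.204), a margin of 4.08. TEK, the angiopoietin receptor TIE2 known from endothelium, was at 44.7 against 0 to 3.46, with KLE the highest of the others and a margin of 3.36. In none of these 3 genes did another line come near H522. EPHA5, an ephrin receptor of developing neurons, was at 52.6 against 4.70 in H661 and at most 0.412 in the rest, a margin of 3.23. The antisense gene EPHA5-AS1 was at 83.5 in H522 and 4.93 in H661, and whether the counting used strand is not known, so reads of the 2 genes cannot be told apart. It was chosen after its values were seen. UTS2B, a urotensin-like peptide hormone, was at 13.7 against at most 0.456 (3.33). PCDH11X, a protocadherin of the X chromosome, was at 20.2 against at most 1.09 in 1321N1 (3.35).

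Among the 25 widest margins were also genes of the cell envelope, membranes and cell survival. SCEL, which encodes sciellin of the cornified envelope, was at 45.2 against 0 to 1.18 (median 0), a margin of 4.41. TMEM30B, a subunit of phospholipid flippases, was at 87.4 against 5.33 in H146 and 4.14 in KLE (3.80). BCL2A1, an inhibitor of apoptosis, was at 6.24 and at 0 to 0.0298 elsewhere. NEFH, the heavy neurofilament, was at 9.78 against at most 0.999, and the phosphatase PTPRQ at 22.5 against at most 3.47. ARHGAP9 (8.64), a GTPase activating protein, and RGCC (27.5), a cell cycle regulator, completed this group with margins of 2.58 and 2.32. No other gene of the squamous list went with SCEL: of 19 genes 10 were listed at 0 in H522, and S100A2 (6.73) was the next highest. Of those at 0, IVL, SPRR1A, SPRR1B and SPRR3 were at 0 in every line.

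Several others of the 25 encode regulators of transcription. HDAC9, a class IIa histone deacetylase, was the most abundant, at 594 against 98.7 in KLE, 95.1 in H661 and 0.557 in H716, a margin of 2.58. GBX2, a homeobox factor of the hindbrain border, was at 27.0 against at most 3.64 (2.59), and MEOX2 at 6.66 against at most 0.297 (2.56). MYCL, the MYC family member first found amplified in small cell lung cancer, was at 12.3 in H522 and at 0.323 in the small cell line H146, with KLE highest of the others at 1.36 (2.50). FOXB2, a forkhead factor, was at 6.54 while all other lines were listed at 0. KIAA2022, an X-linked gene of neuronal development, was at 5.13 against at most 0.169 (2.39). Their levels in H522 ranged from 5.13 to 594, and their rank follows from how they were chosen.

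A few are known from the germ line or from DNA recombination. GSG1, a germ cell gene, was at 11.6 against at most 0.592 (2.98). RNF212, a meiotic crossover factor, was at 20.4 against at most 2.42 in COV318 (2.64). SFR1, a partner of the recombination factor SWI5, differed from most of the list in being expressed everywhere, at 46.9 against 2.28 to 5.67 (2.84). IFI35, an interferon-induced protein, was at 26.8 against 0.575 to 3.76 (2.55). MTRNR2L8 had the widest margin of all, 5.64, at 302 against 1.86 to 5.07. This gene is nearly identical to the mitochondrial 16S ribosomal RNA, so its value is uncertain.

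**Figure D2:**
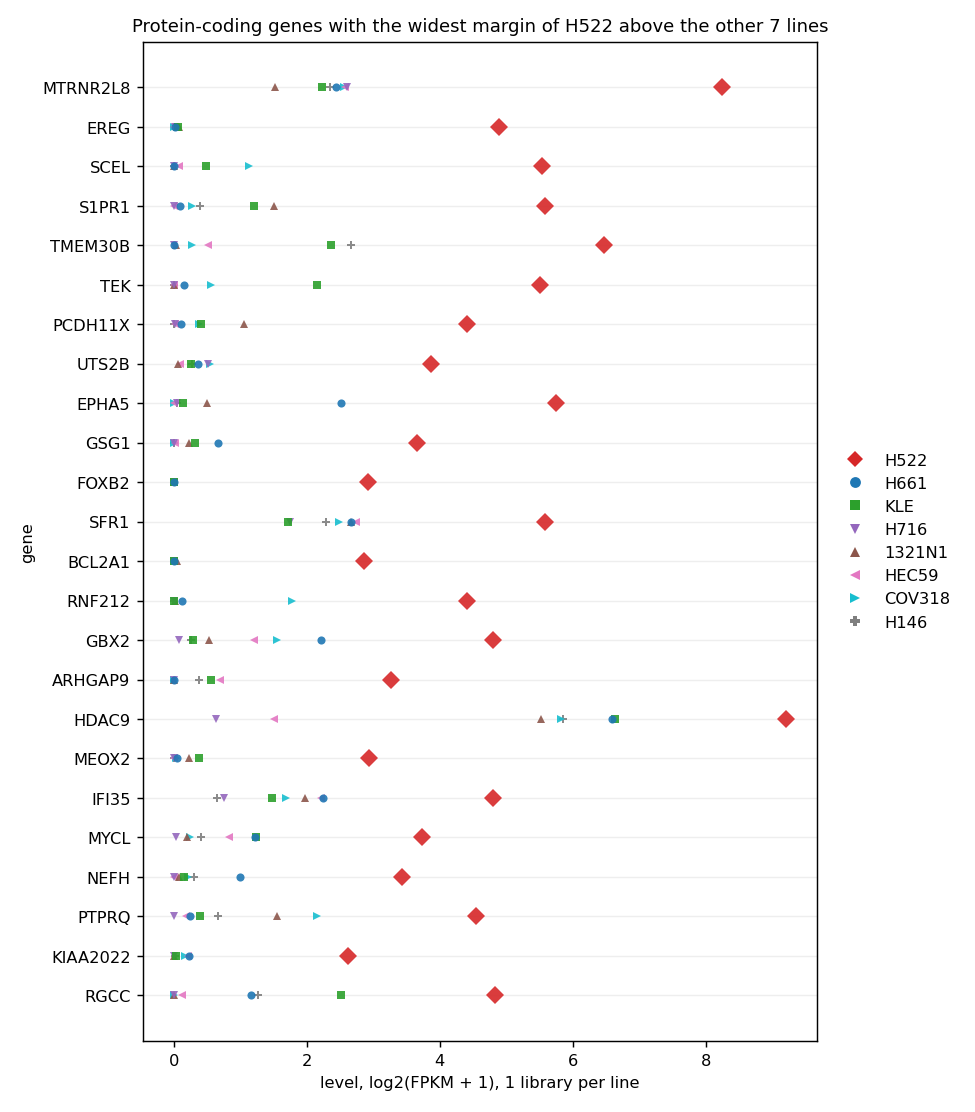
Level on the log2(FPKM + 1) axis in each of the 8 lines (1 library each, H522 as red diamonds) for protein-coding genes with the widest margins of H522 above. EREG, SCEL and S1PR1 lie near 0 in most other lines, whereas HDAC9 and SFR1 are expressed in most of them and highest in H522.

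The 20 genes with the widest margins below were at an FPKM of 4.20 or more in every other line, which a margin of this size requires. FUCA2, a secreted fucosidase, was at 0.050 in H522 and at 18.5 to 56.5 elsewhere, a margin below of 4.22. DPYSL2, a microtubule-binding protein of axon growth, was at 1.11 against 33.1 to 264 (4.01). S100A6, a calcium-binding protein, was at 0.697 against 24.9 in H661 to 611 in 1321N1 (3.93). CAMK2D, a calmodulin-dependent kinase, was at 0.150 against 14.6 to 173 (3.76). TCEAL8, an X-linked elongation factor-like gene, was at 0.144 against 13.0 to 91.6 (3.61). In 1321N1 and H146 the levels of DPYSL2 were highest, while S100A6 was lowest in H661 after H522.

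Some of the 20 encode enzymes or mitochondrial proteins. BCAT2, the mitochondrial transaminase of branched-chain amino acids, was at 0.474 against 11.4 in KLE to 22.98 in H146 (3.08). TMLHE, the first enzyme of carnitine synthesis, was at 0.0954 against 5.65 to 19.3 (2.60). PLOD2, a lysyl hydroxylase of collagen, was at 0.103 against 4.97 to 69.1 (2.44), and ASPH, an aspartate hydroxylase, at 0.649 against 9.27 to 249 (2.64). SLC25A46, a protein of the mitochondrial outer membrane, was at 0.243 against 6.29 to 22.1 (2.55). CHCHD5, a small mitochondrial protein, and SAT2, an acetyltransferase, were listed at 0 in H522 with at least 7.15 and 5.79 in every other line. They were the 2 protein-coding genes listed at 0 in H522 with every other line at 5 or more. The other lines had 0 to 2 such genes each, and a listed 0 can also be a failed estimate.

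The remaining genes of the 20 had margins below from 2.35 to 3.01. GLMP, a lysosomal membrane protein, was at 0.759 against 13.2 to 44.9. NRIP1, a corepressor of nuclear receptors, was at 0.711 against 7.79 to 40.3. SGCE, an imprinted sarcoglycan, was at 0.874 against 8.58 to 39.3. PDLIM1, an actin-associated LIM protein, was at 2.33 against 16.0 to 137. ARMCX3, TRIQK, SPATS2L and RANGRF were at 0.0133 to 0.757 in H522 and at 4.20 or more in all other lines. H522 thus held all 20 genes under an FPKM of 3. With a pseudocount of 5 the margins of ARMCX3 and PLOD2 were 0.876 and 0.967, and that of KIAA2022 above was 0.970.

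In the ERBB family, H522 combined high ERBB4, EREG and NRG1 with little EGFR. ERBB4 was at 102, the highest of the 8 lines by a margin of 0.25 over HEC59. This rank was not stable, since the margin was -0.06 after upper-quartile scaling and -0.23 after quantile normalization. ERBB2, the receptor with no ligand of its own, was also highest in H522 (22.0, margin 0.52). EGFR and ERBB3 were at 0.392 and 0.818, below the median of the other lines. Of 10 ligands past the filter, 8 were above that median, beside 54.1% of all genes, and the median difference was 0.977, while 1 (EREG) passed a margin of 1. NRG1 was highest in H522 at 81.9 (margin 0.84 over H661). AREG, amphiregulin, was at 9.38 in H522, near the 10.9 of HEC59 and at most 0.859 elsewhere. TGFA was at 2.20. HBEGF was at 2.09, above the median of 0.717 in the other lines but far under the 36.4 of H661. EGF was at 0.00705 and NRG3 at 0, under medians of 0.102 and 0.0481. EGF reached 10.9 in H661 and was at 0 in H716 and H146. NRG3 was also at 0 in H716 and HEC59. No ERBB receptor passed a margin of 1 in either direction.

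Feedback genes of the MAP kinase cascade were split. Of 16 genes, 11 were above the median of the other lines and 5 under it (54.1% and 43.4% of all genes), and none passed a margin of 1. The median difference was 0.09, and 0.04 to 0.15 under other scalings. H522 was the highest line for DUSP6, a phosphatase of ERK (198, with H661 at 151), and for SPRY1 (82.8), SPRED2 (86.1) and ETV4 (16.2). SPRY2, another inhibitor of the cascade, was lowest in H522, at 0.192 against 1.27 to 29.7, a margin below of 0.93. ETV1, an ETS factor, was at 3.32 against 361 in H716. SPRY1 and SPRY2 thus lay at opposite ends of the 8 lines.

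Receptor tyrosine kinases outside the ERBB family went both ways. TEK and EPHA5, given above with margins of 3.36 and 3.23, are such kinases but were not on the list of 32. MET, the receptor for hepatocyte growth factor, was at 1.36 against 7.32 in H661 to 125 in H716, a margin below of 1.82, and of the 28 listed kinases past the filter no other passed a margin of 1 in either direction. With a pseudocount of 5 this margin was 0.954. IGF1R (95.0), FGFR1 (55.3) and ROR2 (4.07) were highest in H522 by margins of 0.87, 0.42 and 0.97. FGFR2 was at 0.420 and EPHA3 at 0.0987, where H716 and 1321N1 reached 1853 and 47.4. AXL was at 8.94, behind 1321N1 (137) and H661 (10.9). BTK, the drug's intended target, was at 0.112 in H522 and under 1 in all lines. Of the 10 kinases listed as covalent targets, 4 were listed at 0 in H522.

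Retinoid genes gave the highest single level among the markers. ALDH1A1, which makes retinoic acid from retinaldehyde, was at 2318 in H522, against 696 in H661, 164 in H716, 141 in H146 and at most 3.19 in the other 4 lines, a margin of 1.73. RARB, a retinoic acid receptor that is itself induced by retinoic acid, was at 66.5 against at most 24.8 in H716 (1.39). RARA (9.37) and RARG (5.38) were also highest in H522, by 0.74 and 0.06, and the lead of RARG became -0.09 with equal summed FPKM. CYP26A1, the enzyme that degrades retinoic acid, was at 7.44 beside 8.04 in H661. ALDH1A2 and ALDH1A3, the sister enzymes of ALDH1A1, were at 0.0615 and 0.420. STRA6, a retinol transporter, was lowest in H522 (0.0461). Of 15 retinoid genes past the filter, 10 were above the median of the other lines, beside 54.1% of all genes, and the median difference was 0.427.

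In the sphingosine 1-phosphate list, S1PR1 was the 1 gene of 10 past a margin of 1. S1PR2 was highest in H522 at 3.74 with HEC59 at 2.48, a margin of 0.44. S1PR3 and S1PR5 were at 2.22 and 2.30, inside the range of the other lines. SPHK1, a kinase that makes the ligand, was at 3.21 and SGPP2, a phosphatase that removes it, at 0.852. The 10 genes had a median difference of 0.524.

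Subunits of the SWI/SNF chromatin remodeller showed a contrast between its ATPases and its other parts. The ATPase SMARCA2 was at 0.0282 in H522 against 1.25 to 17.3, a margin below of 1.13. The other ATPase, SMARCA4, was at 4.44 in H522 and 1.68 in H661, against 28.9 to 106 in the other 6 lines. H522 and H661 thus had the lowest levels of SMARCA4. With a pseudocount of 5 the margin of SMARCA2 was 0.314. In contrast, 18 of 22 subunits past the filter were above the median of the other lines in H522 and 8 were highest, where 54.1% and 16.6% of all genes were. The median difference was 0.615, and 0.395 after quantile normalization. SMARCE1 (155, margin 0.83), SMARCD2 (18.5, 0.65), SMARCC1 (136, 0.35) and ARID1A (92.0, 0.16) were among those 8, and PBRM1 lost its rank under 2 of the scalings.

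Developmental and oncofetal genes were mixed. The 13 oncofetal genes past the filter had a median difference of 1.18. Of these, 9 were above and 4 under the median of the other lines (54.1% and 43.4% of all genes). TPBG was lowest in H522 at 0.246 and AFP was listed at 0. LIN28B (3.82) and GPC3 (4.22) were far under their levels in H661 (53.6 and 219). Against the median of the other lines, LIN28B was slightly under (4.26) and GPC3 above (0.137). SALL4, a factor of embryonic stem cells, was at 53.0 with 44.6 in H661, the RNA-binding proteins IGF2BP1 and IGF2BP3 at 51.6 and 184, and HMGA1, an architectural chromatin protein, at 158. HMGA1 passed a margin of 1 with 1.03, and was at 0.845 to 0.890 with values rescaled. Of 34 HOX genes past the filter, 21 were under the median of the other lines, beside 43.4% of all genes. HOXA7 was below all lines, at 1.83 against 7.82 to 41.5 (1.64). HOXC10 was highest in H522 at 64.1, with H661 at 34.7 and at most 8.01 elsewhere. GRIA2, an AMPA receptor subunit, was at 180 against at most 52.3 in H146 (1.77), and the other 9 glutamate receptor genes past the filter were under 1 in H522. SYT1, a synaptic vesicle protein, was below all lines at 0.103 (1.29), and NCAM1 was listed at 0. With a pseudocount of 5 the margins of HOXA7 and SYT1 were 0.909 and 0.390.

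Most interferon-stimulated and MHC class I genes were under the median of the other lines, beside 43.4% of all genes. Of 26 interferon-stimulated genes 23 were under it, 8 were listed at 0, and the median difference was -0.957. IFI44 and IFI44L were listed at 0, IFI6 was at 3.37 and ISG15 at 2.72. Of 14 MHC class I genes, 10 were under that median, with a median of -0.706. HLA-B was at 4.18 and B2M, the common light chain, at 44.8. H522 was not the lowest line for any of the 14, and none of either list passed a margin of 1. Among 27 cancer-testis antigens 16 were listed at 0, of which MAGEA2 and SSX4 were at 0 in every line. CTAG2 (46.4) and PRAME (46.7) were high, and MAGEA3, MAGEA6 and MAGEA12 were at 0 to 0.172.

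Among 21 cell cycle regulators of G1, H522 was the highest line for 2 and the lowest for 3, beside 16.6% and 8.43% of all genes. Of the lowest, CDKN1B and CDKN1C had margins of only 0.02 and 0.01. CDKN1C lost that rank under all 3 scalings. CDKN2A, which encodes p16 and ARF, and CDKN2B, which encodes p15, were highest in H522 at 118 and 13.5. COV318 was next for both, with CDKN2A close at 109 (margin 0.11) and CDKN2B at 6.83 (0.89). CDK6 was at 0.267 and CCND1, cyclin D1, at 19.1, both under the median of the others. RB1 was at 12.8. None of the 21 genes passed a margin of 1. Proliferation genes were near the other lines, with a median difference of 0.193 over 15 genes. RRM2, a subunit of ribonucleotide reductase, was highest in H522 at 604 and CDK1 lowest at 8.82.

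Targets of NRF2, the regulator of the antioxidant response, were divided. TXNRD1, thioredoxin reductase, was at 363 against at most 157 in KLE (margin 1.21). HMOX1, heme oxygenase, was at 25.6 against at most 8.34 in 1321N1 (1.51). SRXN1 (14.8) and OSGIN1 (3.31) were also highest in H522, by 0.94 and 0.83. ME1, malic enzyme, was lowest at 0.0662 (0.97 below), and AKR1C3 was at 0.0235 against 504 in H716. The 16 genes had a median difference of 0.212, with 8 above and 7 under the median of the other lines. Each of the ranks named here was kept under 3 other scalings. NFE2L2, the gene of NRF2 itself, was among the 236 genes above, at 329 and a margin of 1.25, and was looked up after the list had been read.

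**Figure D3:**
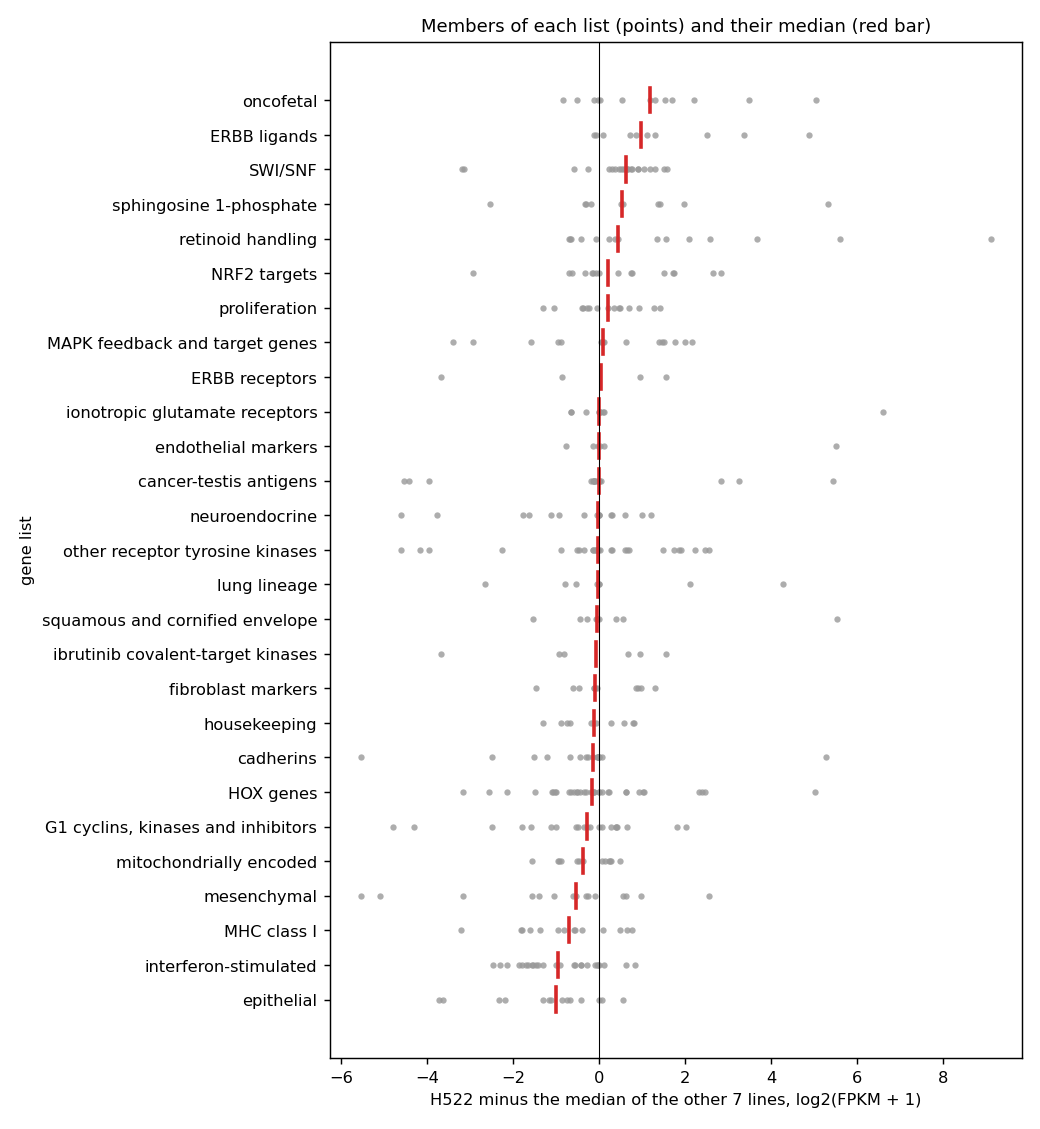
Difference of H522 from the median of the other 7 lines on the log2(FPKM + 1) scale (horizontal axis) for the members of each gene list past the filter, as grey points, with the list median as a red bar. Medians run from 1.18 for oncofetal genes to -1.001 for epithelial genes, and ALDH1A1, EREG, SCEL, S1PR1 and GRIA2 lie far from their lists.

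H661 was the line with which H522 shared the most genes. A shared margin is the lower of the pair minus the highest of the remaining 6 lines. With H661 it reached 1 or more in 59 genes and 3 or more in 3, while with each of the other 6 lines H522 shared 8 to 17 genes at 1 or more. Among all 28 pairs of lines, KLE with COV318 (135), H716 with H146 (145) and H716 with 1321N1 (61) shared more at 1 or more. SFRP4, a secreted inhibitor of WNT signalling, was at 94.3 in H522 and 244 in H661 against at most 1.13 (shared margin 5.48). FAM9C, related to a synaptonemal complex protein, was at 16.7 and 16.2 against at most 0.328 (3.69). EIF4E3, a cap-binding protein, was at 76.4 and 109 against at most 8.20 (3.07). The next were SEMA3D, EMP1, SALL4, PRDM1, SEPT6, NTRK3 and SLC2A3, with shared margins from 2.63 to 2.33. PRDM1, a repressor known from plasma cell and germ cell fate, was at 21.2 and 11.3. Outside H661, SOSTDC1, a BMP and WNT antagonist, was shared with KLE at 551 and 441 against at most 19.8 (4.41), and OSTN, a bone peptide, with H716 at 24.6 and 68.0 against at most 0.284 (4.31).

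The genes above were unevenly spread over chromosomes. On chromosome 17, 40 of 763 tested genes were above by 1 or more (5.24%) and on chromosome 6, 35 of 718 (4.87%), against 1.69% in all. On chromosome 19, 1 of 993 was (0.101%). Chromosome 8 held 17 of 482 genes below (3.53%), against 0.674% in all. Genes above also formed runs, defined as at least 4 such genes with no more than 4 steps between one and the next in the order of tested genes. H522 had 6 runs and the other lines 3 to 12. PTRH2, VMP1, TUBD1, RPS6KB1 and RNFT1 were 5 neighbours on chromosome 17, with VMP1, an autophagy protein, at 927 against at most 271, and RPS6KB1, the S6 kinase, at 88.1 against at most 32.1. On chromosome 6 there were 3 runs, led by SRPK1 (221 against at most 62.7), NUP153 (145 against at most 50.9) and TDP2 (43.5 against at most 13.3). The run on chromosome 2 held KANSL3, CNNM4 and SEMA4C. These runs and their genes were named after their values had been seen.

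**Figure D4:**
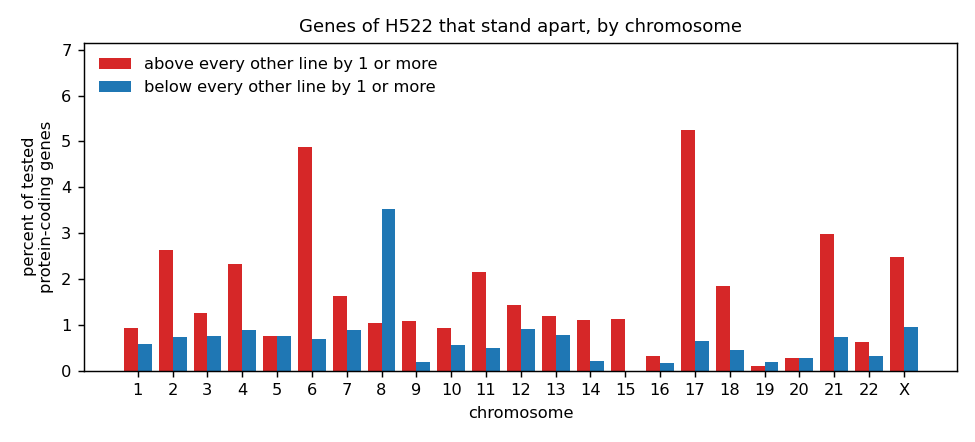
Percent of tested protein-coding genes on each chromosome that H522 held above (red) or below (blue) all other 7 lines by 1 or more on the log2(FPKM + 1) scale. Chromosomes 17 and 6 are highest above, at 5.24% and 4.87%, and chromosome 8 is highest below, at 3.53%.

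Genes of other types were 5255 of those past the filter, and 159 were above by 1 or more and 22 below. Of the 22 above by 3 or more, 20 had every other line listed at 0, and they included 4 snRNA genes and 4 rRNA pseudogenes. FPKM divides by length, so a few fragments of a short RNA give a large value. AC060226.1 and RP11-296I10.5 both stood at 1192, TRNAI2 at 373, U4 at 327 and U2 at 293, with all other lines at 0. AC060226.1 and RP11-296I10.5 had the same value, reads of near-identical copies cannot be told apart, and these levels are uncertain.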

How the data were processed

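RNA sequencing of 8 cell lines with 1 library each was analysed. The authors deposited 1 table of FPKM values for each line, with Ensembl identifiers. The submitters' processing notes name CASAVA 1.4, TopHat2 2.0.8, SAMtools 1.0 and the build GRCh37. The sources used here name neither the program that computed FPKM nor its annotation or use of strand. FPKM holds no read totals, so no counting interval is given.

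The 8 tables were joined on gene identifier. Genes were kept where any line reached an FPKM of 1, and a pseudocount of 1 was added before taking log2, which understates differences of low genes. Gene types and gene order came from GENCODE v29 (GRCh38, no coordinates used), which held 82.2% of identifiers. Margins were computed with Python 3.11.15, numpy 2.4.6 and pandas 2.3.3 and tested on simulated data. Relative depth is the commonest ratio of values under 0.1. The genes named were the 25 widest margins above, the 20 below and 5 of other types, the markers, members of each list past a margin of 1 or farthest from the other lines, defining members, and the 10 most shared with the nearest line. Members and lists were chosen with earlier results of these data known. Some genes that the rule names are not reported here. Alternative pseudocounts, filters, scalings and sets of lines were tried.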

Additional observations from a re-analysis of the deposited data

How the results depend on the processing

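The counts moved with the pseudocount. With 0.1, 26 protein-coding genes were above by 3 or more, 259 below by 1 or more and 40 below by 3 or more. With 5, 135 and 3 were above and 32 and 0 below. Against H661, KLE and H716 alone, 537 and 16 were above and 348 and 42 below, as fewer lines must give more. Leaving out each other line in turn gave 255 to 361 genes above by 1 or more, 9 to 22 above by 3 or more, 103 to 161 below by 1 or more and 8 to 17 below by 3 or more. The highest of each range was without H661. Under upper-quartile scaling 184 of the 236 genes above and all 94 below were kept. Of 61 margins of named genes, 8 dropped under 1 in at least 1 of 16 alternatives, though 14 are left out, and so have no value, where 2 lines must reach an FPKM of 1: ARMCX3, HMGA1, HOXA7, KIAA2022, MET, PLOD2, SMARCA2 and SYT1, all with a pseudocount of 5, and HMGA1 also under each scaling. Only the pseudocount of 5 and the 3 scalings could lower a margin. Leaving out lines or a pseudocount of 0.1 cannot lower one, and a filter cannot change it. Of named margins past 1 none changed sign, which only the 3 scalings could have done. Among list members past the filter, 42 that were highest in H522 and 29 that were lowest kept that rank under all 3 scalings, and 5 and 10 did not. The epithelial median was -0.391 and the oncofetal 0.844 with a pseudocount of 5. Depth is unknown, so low values carry an error that cannot be stated. No paired analysis was possible because each line has 1 library and no replicate.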
